A study of Mus musculus with 48 samples.

Results

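The 10 genes described here are the transcription factors Atf4, Atf5, Ddit3 (CHOP), Cebpb and Cebpg and the effectors Trib3, Chac1, Nupr1, Ppp1r15a (GADD34) and Gadd45a, which together make up the ATF4-CHOP branch of the cellular stress response. They were chosen by name from the 47643 Ensembl gene identifiers in the count files, each matched one to one to a mouse symbol, and all 10 passed the filter on low counts that left 19048 genes for testing. Their messages were counted in RNA sequencing libraries of Nav1.8-positive nociceptors, the pain-sensing neurons, sorted from the L4 dorsal root ganglia of mice 8 to 9 weeks old on a mixed C57BL/6 and AJ background. Mice of both genotypes carried Nav1.8-Cre, which acts in Nav1.8-expressing sensory neurons, and the Rosa26-ZsGreen reporter by which the cells were sorted. At Tsc2, conditional knockout (cKO) mice were flox/null, so their other cells also carried a null allele, and control mice were flox/+, so control neurons too could lose an allele. Tsc2 encodes tuberin, which restrains the growth kinase complex mTORC1. The 4 groups were crush cKO and crush control, from ganglia on the side of a sciatic nerve crush made 3 days earlier, and uninjured cKO and uninjured control, from contralateral ganglia of crushed mice, so no ganglion came from an unoperated animal. The side was taken from the tissue labels, since the extraction protocol, worded alike for all samples, names contralateral ganglia even for those labelled ipsilateral. Each group held 4 replicates, 2 male and 2 female, and each replicate was sequenced as 3 aliquots of about 100 cells, whose counts were summed here to 16 values per gene.

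As background, cells under endoplasmic reticulum stress, amino acid shortage or other insults phosphorylate the translation factor eIF2, which lowers general protein synthesis while favouring translation of the Atf4 message. ATF4 protein, paired with C/EBP and other bZIP partners, then turns on amino acid transporters, aminoacyl-tRNA synthetases and the genes for CHOP, TRIB3 and CHAC1. mTORC1 also raises ATF4 through its message and translation, and injured sensory neurons are known to switch on several bZIP stress factors. ATF4 itself is controlled largely at translation, and the values below are messenger RNA only.

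The summed samples held 36773198 to 63365268 gene counts, which put 15 to 23361 reads on each of these genes per sample. Tsc2 checked the genotype labels, with 8.30 ± 2.42 CPM in crush cKO against 23.2 ± 3.76 CPM in crush control samples and 8.86 ± 1.51 CPM in uninjured cKO against 21.0 ± 5.14 CPM in uninjured control samples (mean ± SD, n = 4 each). CPM are counts per 1000000 on TMM-scaled library sizes. All 14 nociceptor markers were detected in every group, with summed levels of 14732 to 27584 CPM per sample. Satellite glia markers summed to 913.9 to 2166 CPM and Schwann cell markers to 1533 to 2666 CPM, whereas macrophage markers summed to 79.3 CPM in crush control replicate 2 and to 35.3 CPM or less in every other sample. In sums of sorted cells, fewer cells of a type and less RNA per cell cannot be told apart.

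RefSeq promoter windows of the GRCm38.p6 build, from 250 bases before to 50 after each annotated start, were found for all 10 genes, with 2 windows for Atf5. They were searched on both strands for 4 motifs. The core of the C/EBP-ATF response element, TGATGNAA, which ATF4 binds with a C/EBP partner, was in 3.97% of all 32851 windows and in those of Chac1, Trib3 and Nupr1. The cyclic AMP response element TGACGTCA, in 1.79% of windows, was in that of Ppp1r15a. The AP-1 site TGANTCA, in 7.81% of windows, was in that of Ddit3. The endoplasmic reticulum stress element, in 0.119% of windows, was in none of them. These searches describe letters only, and the C/EBP-ATF core and the AP-1 site are short enough to occur often by base composition. The sequences that follow, given 5′ to 3′ on the gene's strand and up to the first annotated exon, lie upstream of the 4 genes whose levels carry the results: Atf4 (chr15:80254934-80255183, plus strand), Ddit3 (chr10:127290543-127290773, plus strand), Chac1 (chr2:119350992-119351228, plus strand) and Gadd45a (chr6:67037458-67037657, minus strand). Capitals mark the AP-1 letters upstream of Ddit3 and the C/EBP-ATF core, on the opposite strand, upstream of Chac1.
Atf4: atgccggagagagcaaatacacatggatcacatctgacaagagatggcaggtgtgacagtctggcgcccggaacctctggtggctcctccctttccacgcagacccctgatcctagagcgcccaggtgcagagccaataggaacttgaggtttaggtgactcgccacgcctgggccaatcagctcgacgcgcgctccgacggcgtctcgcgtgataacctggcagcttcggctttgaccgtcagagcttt
Ddit3: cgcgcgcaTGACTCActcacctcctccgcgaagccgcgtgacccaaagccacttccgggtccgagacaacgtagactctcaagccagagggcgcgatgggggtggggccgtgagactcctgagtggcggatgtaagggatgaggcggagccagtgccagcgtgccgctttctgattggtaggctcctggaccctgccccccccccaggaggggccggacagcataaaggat
Chac1: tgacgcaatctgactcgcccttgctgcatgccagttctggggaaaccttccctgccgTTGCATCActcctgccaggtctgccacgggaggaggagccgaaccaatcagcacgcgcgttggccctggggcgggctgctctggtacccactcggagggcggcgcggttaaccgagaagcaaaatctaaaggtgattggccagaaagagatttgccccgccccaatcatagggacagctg
Gadd45a: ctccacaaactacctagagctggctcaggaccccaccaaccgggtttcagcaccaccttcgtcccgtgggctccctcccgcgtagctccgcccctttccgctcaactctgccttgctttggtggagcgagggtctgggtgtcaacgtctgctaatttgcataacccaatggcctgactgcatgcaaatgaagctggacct

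Both the crush and the deletion raised most of these genes when set against uninjured control neurons, and fewer of them moved when the second was added to the first. Crush in control neurons raised 7 of the 10 genes and lowered none, where 11.0% of all genes tested rose and 8.68% fell (edgeR quasi-likelihood test, Benjamini-Hochberg adjusted p under 0.05, called "rose" or "fell" throughout). Deletion in uninjured neurons also raised 7 and lowered none, where 11.7% of all genes rose and 9.02% fell. These were the same 7, namely Atf4, Atf5, Ddit3, Trib3, Chac1, Cebpg and Gadd45a. Both comparisons use the uninjured control samples, so their overlap is not independent. Crush in cKO neurons raised 3 (Atf4, Chac1 and Gadd45a), where 2.57% of all genes rose and 2.86% fell. Deletion after crush raised only Ddit3, where 3.38% of all genes rose and 3.21% fell. At the median of the 10 genes, crush gave a log2 change of 0.57 in cKO and 0.92 in control neurons, and deletion gave 0.42 after crush and 1.26 in uninjured neurons. Over all genes tested the same medians lay between -0.03 and 0.02. The background for crush in cKO neurons was smaller in some fits that left out a sample. With all samples 490 genes rose and 544 fell. The numbers were 315 and 303 without uninjured cKO replicate 1, 321 and 321 without replicate 2 and 351 and 332 without replicate 3 of that group. Without crush cKO replicate 4 they were 349 and 288. Over all fits that left out a sample 618 to 1082 genes were called, against 1034 with all samples.

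Summed levels of immune cell markers were low and differed between groups in the same comparisons. The 10 neutrophil and lymphocyte markers summed to 25.9 to 38.3 CPM in crush cKO, 10.3 to 30.3 CPM in crush control, 6.28 to 9.87 CPM in uninjured cKO and 0.380 to 2.93 CPM in uninjured control samples, with S100a9 and Ncr1 at 0 in every group. Of the 4 that passed the filter, 2 rose with crush in cKO neurons, 3 with crush in control neurons, 2 with deletion after crush and 3 with deletion in uninjured neurons, and none fell. A marker can pass the filter through the groups where it is high, so the direction of these calls does not stand apart from it. Trbc2 led the sum in crush cKO (mean 12.9 CPM) and Ly6g in crush control samples (9.85 CPM). S100a8 led in uninjured cKO (3.73 CPM) and Cd79a in uninjured control samples (1.14 CPM). The 12 macrophage markers summed to 16.6 to 35.3 CPM in crush cKO, 10.7 to 79.3 CPM in crush control, 8.66 to 28.8 CPM in uninjured cKO and 4.39 to 11.0 CPM in uninjured control samples. Of 10 tested, 2 rose with crush in control neurons and 2 with deletion in uninjured neurons, where 11.0% and 11.7% of all genes rose. None was called in the other 2 comparisons. The macrophage markers did not all move together. Cx3cr1 (5.70 against 0.0329 CPM) and Csf1r (3.71 against 0.804 CPM) averaged higher in uninjured cKO than in uninjured control samples. C1qb (0.573 against 1.76 CPM), Tyrobp, Adgre1 and Fcgr3 averaged lower there. The part of such cells in the levels of the 10 stress genes was not tested.

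**Figure D1:**
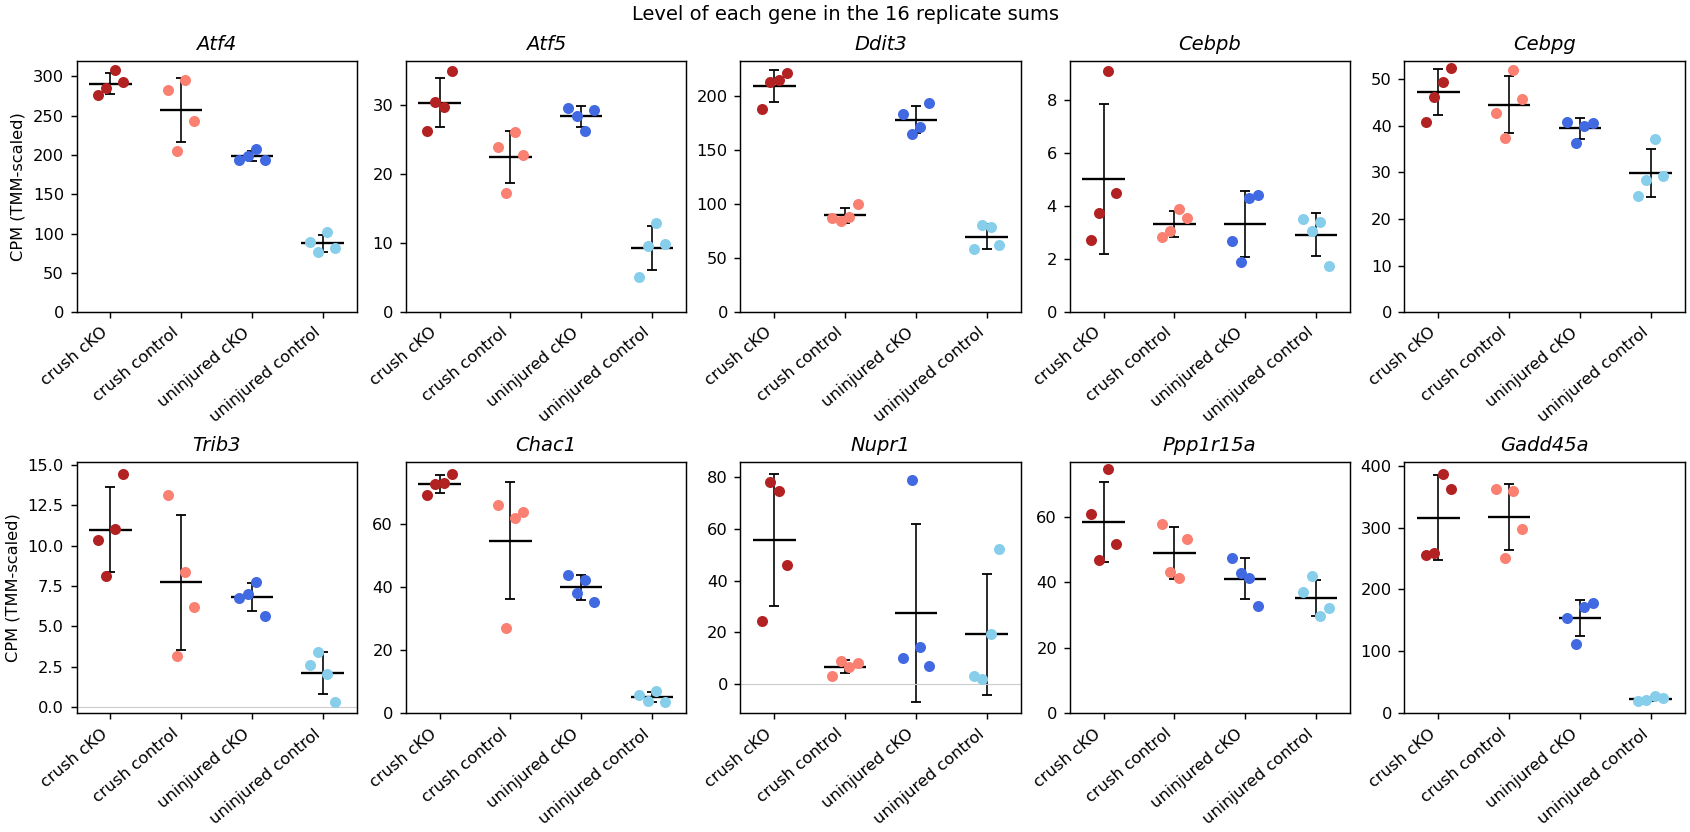
Level of each of the 10 genes in the 16 replicate sums, in CPM on linear axes; each point is a replicate, the horizontal line the mean and the bar ± SD (n = 4 per group). Atf4, Chac1 and Gadd45a stand at their lowest in all 4 uninjured control samples, while Ddit3 separates by genotype, with the 8 cKO samples at 165 to 222 CPM and the 8 control samples at 58.3 to 100.1 CPM.

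Levels can be compared between genes per kilobase of exon. In uninjured control neurons Ddit3 (40.9 ± 6.59 CPM per kb) and Atf4 (37.2 ± 4.76 CPM per kb) led and did not differ beyond their spread. Gadd45a (13.4 ± 2.00 CPM per kb) and Ppp1r15a (12.01 ± 1.84 CPM per kb) followed, also within their spread of each other, and the other 6 averaged 0.980 to 7.66 CPM per kb with Trib3 lowest. In crush cKO neurons Gadd45a led (179 ± 38.8 CPM per kb), ahead of Atf4 (123 ± 5.73 CPM per kb) and Ddit3 (122 ± 8.53 CPM per kb).

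Atf4, the central transcription factor of the branch, was measured at 276, 285, 308 and 293 CPM in crush cKO, 283, 206, 295 and 243 CPM in crush control, 194, 199, 208 and 194 CPM in uninjured cKO, and 90.0, 76.7, 102 and 81.9 CPM in uninjured control replicates 1 to 4. The uninjured control samples were the lowest and overlapped with no other group, and the crush samples of the 2 genotypes overlapped. Crush raised Atf4 by 0.55 ± 0.11 log2 units in cKO neurons (SE, edgeR adjusted p = 0.00752), and by 1.55 ± 0.11 in control neurons (edgeR adjusted p = 1.09e-07), a 2.93-fold change. The deletion difference was 0.18 ± 0.11 after crush (edgeR adjusted p = 0.404) and a rise of 1.18 ± 0.11 in uninjured neurons (edgeR adjusted p = 2.44e-06). In a two-sided exact permutation test on log2(CPM + 0.5), crush in each genotype and deletion in uninjured neurons gave p = 0.0286, the smallest that 4 against 4 samples allow.

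ATF5 is a bZIP factor related to ATF4 whose message is likewise translated under stress. Its gene was read at 26.3, 30.5, 29.7 and 34.9 CPM in crush cKO, 23.9, 17.2, 26.1 and 22.8 CPM in crush control, 29.7, 28.4, 26.3 and 29.3 CPM in uninjured cKO, and 5.15, 9.56, 12.9 and 9.88 CPM in uninjured control samples. The uninjured control samples were again the lowest, and the 2 cKO groups lay on top of each other. Deletion raised Atf5 by 1.60 ± 0.21 log2 units in uninjured neurons (edgeR adjusted p = 6.27e-05), and crush raised it by 1.26 ± 0.21 in control neurons (edgeR adjusted p = 0.000536). In cKO neurons the crush difference was 0.10 ± 0.21 (edgeR adjusted p = 0.899). After crush every cKO sample was above every control sample (0.43 ± 0.21 log2 units), but the difference did not pass the edgeR test (adjusted p = 0.254).

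The C/EBP proteins are the bZIP partners with which ATF4 and CHOP pair. Cebpg averaged 47.2 ± 4.95 CPM in crush cKO, 44.5 ± 6.07 CPM in crush control, 39.4 ± 2.17 CPM in uninjured cKO and 29.8 ± 5.18 CPM in uninjured control samples (SD, n = 4). The uninjured control samples were lowest apart from replicate 3, whose 37.1 CPM lay inside the uninjured cKO range. Crush raised Cebpg in control neurons by 0.58 ± 0.13 log2 units (edgeR adjusted p = 0.00569). Deletion raised it in uninjured neurons by 0.40 ± 0.13 (edgeR adjusted p = 0.0407), a call that was lost, with adjusted p up to 0.128, when any of 9 samples was left out: uninjured cKO replicate 1, 2, 3 or 4, uninjured control replicate 1, 2 or 4, crush control replicate 4 or crush cKO replicate 2. Cebpb was low, at 2.73 to 9.09 CPM in crush cKO, 2.83 to 3.89 CPM in crush control, 1.90 to 4.42 CPM in uninjured cKO and 1.73 to 3.50 CPM in uninjured control samples. All 4 groups overlapped, and in no comparison did Cebpb pass the edgeR test (adjusted p of 0.431 or more). Without strand information, 20.7% of Cebpb's exon length cannot be told apart from the antisense gene Tmem189.

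Ddit3, which encodes CHOP, the factor that carries prolonged stress towards cell death, had another order of group levels than Atf4. It was measured at 188, 213, 215 and 222 CPM in crush cKO, 87.0, 84.9, 87.9 and 100.1 CPM in crush control, 183, 165, 172 and 193 CPM in uninjured cKO, and 58.3, 80.5, 79.0 and 62.6 CPM in uninjured control samples. All 8 cKO samples lay above all 8 control samples, whichever side they came from. Deletion raised Ddit3 by 1.22 ± 0.11 log2 units after crush (edgeR adjusted p = 1.45e-05), and by 1.35 ± 0.11 in uninjured neurons (edgeR adjusted p = 4.86e-07), changes of 2.33-fold and 2.54-fold. The crush difference was small: 0.23 ± 0.11 log2 units in cKO neurons (edgeR adjusted p = 0.276) and a rise of 0.36 ± 0.11, or 1.28-fold, in control neurons (edgeR adjusted p = 0.0283). That rise was no longer called when uninjured control replicate 1 or 4 or crush control replicate 4 was left out (adjusted p up to 0.0849), or in a fit of these 2 groups alone (adjusted p = 0.0791). The crush effect did not differ detectably between genotypes (cKO minus control -0.13 ± 0.15 log2 units, edgeR adjusted p = 0.802).

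**Figure D2:**
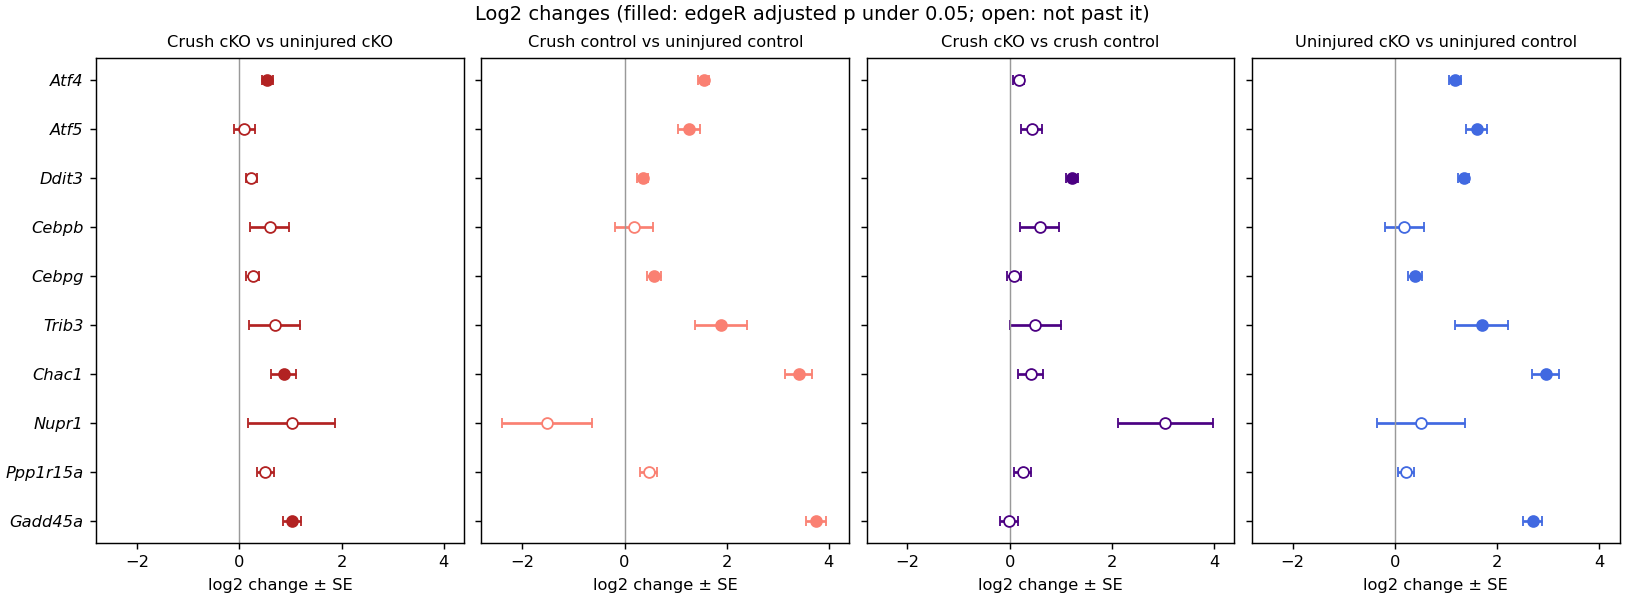
Log2 change ± SE of each of the 10 genes in the 4 pairwise comparisons, fitted over all 16 samples; filled points passed an edgeR adjusted p of 0.05 and open points did not. Crush in control and deletion in uninjured neurons each have 7 filled points, crush in cKO has 3, and deletion after crush has only that of Ddit3 (1.22).

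Among the effectors, Chac1, which encodes an enzyme that degrades glutathione, moved most like Atf4. Its levels were 69.1, 72.8, 73.1 and 76.0 CPM in crush cKO, 66.0, 26.9, 61.9 and 63.8 CPM in crush control, 44.0, 38.0, 42.3 and 35.4 CPM in uninjured cKO, and 5.85, 3.97, 7.13 and 3.61 CPM in uninjured control samples. The uninjured control samples were far below the rest, and crush control replicate 2 was the one crushed sample below uninjured cKO levels. That replicate also had the lowest Atf4, Atf5, Ddit3, Cebpg, Trib3 and Gadd45a among crush control samples and the high macrophage marker sum given above, and the part of those cells in its values was not tested. Crush raised Chac1 by 0.87 ± 0.24 log2 units in cKO neurons (edgeR adjusted p = 0.0462), and by 3.41 ± 0.27, or 10.6-fold, in control neurons (edgeR adjusted p = 2.17e-07). The deletion difference was 0.41 ± 0.24 after crush (edgeR adjusted p = 0.368), although every crush cKO sample was above every crush control sample. In uninjured neurons it was a rise of 2.95 ± 0.26, or 7.75-fold (edgeR adjusted p = 1.14e-06). The call in cKO neurons was lost, with adjusted p up to 0.125, without any single one of the 8 cKO samples, crush control replicate 3 or 4 or uninjured control replicate 1, although all 4 crush cKO samples exceeded all 4 uninjured cKO samples. It was also lost with sex as a covariate (adjusted p = 0.0506) and with aliquots scaled to equal depth (adjusted p = 0.127).

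Gadd45a, a growth arrest and DNA damage gene that is also induced in injured sensory neurons, spanned a wide range. It was read at 256, 259, 387 and 362 CPM in crush cKO, 363, 251, 359 and 297 CPM in crush control, 155, 112, 171 and 178 CPM in uninjured cKO, and 20.7, 20.9, 28.0 and 25.1 CPM in uninjured control samples. The levels formed 3 tiers that did not overlap, with the crushed samples of both genotypes on top, uninjured cKO samples between and uninjured control samples at the bottom. Crush raised Gadd45a by 1.04 ± 0.18 log2 units in cKO neurons (edgeR adjusted p = 0.00267), and by 3.75 ± 0.20 in control neurons (edgeR adjusted p = 2.35e-09), 13.4-fold. The deletion difference was -0.01 ± 0.18 after crush (edgeR adjusted p = 0.991), against a rise of 2.70 ± 0.19, or 6.51-fold, in uninjured neurons (edgeR adjusted p = 9.45e-08). An antisense gene, E230016M11Rik, shares 19.1% of Gadd45a's exon length, and their reads cannot be told apart there.

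TRIB3 is a pseudokinase that restrains AKT and ATF4 activity. Trib3 reads were few, at 10.3, 8.10, 11.01 and 14.5 CPM in crush cKO, 13.1, 3.16, 8.37 and 6.21 CPM in crush control, 6.76, 6.997, 7.73 and 5.66 CPM in uninjured cKO, and 2.59, 3.40, 2.04 and 0.301 CPM in uninjured control samples. Uninjured cKO samples all lay above uninjured control samples, and of the crush control samples 1 lay within the uninjured control range, 1 within the uninjured cKO range and 2 above both. Crush in control neurons raised Trib3 by 1.89 ± 0.52 log2 units (edgeR adjusted p = 0.0167) and deletion in uninjured neurons by 1.70 ± 0.51 (edgeR adjusted p = 0.0273). The first call was lost without crush control replicate 1 (adjusted p = 0.0666) and the second without uninjured control replicate 3 or uninjured cKO replicate 1, 2 or 3 (adjusted p up to 0.058). Neither passed in a fit of the 2 groups compared alone (adjusted p = 0.0816 for crush in control and 0.0578 for deletion in uninjured neurons).

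Ppp1r15a encodes GADD34, the phosphatase subunit that reverses eIF2 phosphorylation and so closes the feedback loop. It averaged 58.5 ± 12.1 CPM in crush cKO, 48.9 ± 7.93 CPM in crush control, 41.1 ± 6.21 CPM in uninjured cKO and 35.3 ± 5.40 CPM in uninjured control samples. The crushed means were higher in both genotypes, but neighbouring groups overlapped and no difference passed the edgeR test. The crush differences were 0.51 ± 0.17 log2 units in cKO (edgeR adjusted p = 0.0955) and 0.47 ± 0.17 in control neurons (edgeR adjusted p = 0.0578). The second passed under 4 of 10 other settings and without uninjured control replicate 2, crush control replicate 2 or 3 or crush cKO replicate 3 (lowest adjusted p = 0.0342), and the first under DESeq2 alone (adjusted p = 0.0311).

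Nupr1, which encodes a small stress-induced chromatin protein, had the widest scatter of the 10. It was read at 24.2, 78.2, 74.6 and 46.2 CPM in crush cKO, 3.31, 9.08, 6.71 and 8.01 CPM in crush control, 9.94, 78.9, 14.2 and 7.01 CPM in uninjured cKO, and 3.35, 2.12, 19.2 and 52.3 CPM in uninjured control samples. Every crush cKO sample was above every crush control sample, while the uninjured groups overlapped and each held a high sample. After crush the deletion difference was 3.05 ± 0.93 log2 units with an edgeR adjusted p of 0.0609, short of the threshold, and 0.0286 in a two-sided exact permutation test, the smallest possible. It passed with DESeq2 (adjusted p = 0.0157), with a mean CPM filter of 5 (adjusted p = 0.0357) and in a fit of the 2 crushed groups alone (adjusted p = 0.00257). It also passed with the replicate number as a block (adjusted p = 0.0482), but that block joined samples of different genotypes, and so of different mice. Markers of vascular cells and fibroblasts summed to 139 to 421 CPM in crush cKO against 51.1 to 109.5 CPM in crush control samples. In uninjured cKO and uninjured control samples they summed to 152 to 269.5 CPM and 86.6 to 254.5 CPM. Dcn led, with a mean of 132 CPM in crush cKO and 48.9 CPM in crush control samples. Satellite glia markers summed to 1416 to 2166 CPM in crush cKO against 914 to 1547 CPM in crush control samples. Their uninjured sums were 1001.4 to 1334.5 CPM in cKO and 965.5 to 1428.4 CPM in control samples. Of the 2 lists, 1 of 13 tested and 1 of 11 tested rose with deletion after crush and none fell. None of those listed was at 0 in either crushed group. Of the neutrophil and lymphocyte markers given above, 2 of 4 tested rose, with the limit of the filter given there. Their part in the Nupr1 difference was not tested.

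**Figure D3:**
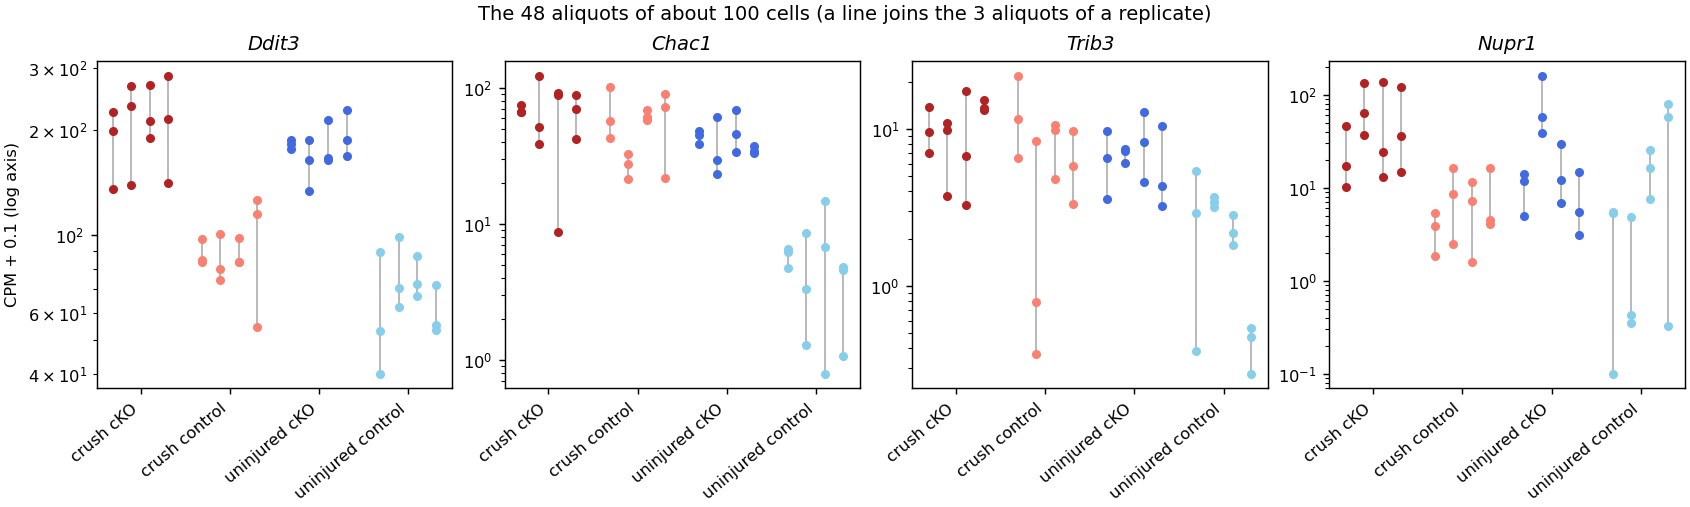
CPM + 0.1 on a log axis in the 48 aliquots of about 100 cells for Ddit3, Chac1, Trib3 and Nupr1; each point is a library and a line joins the 3 aliquots of a replicate. On CPM + 0.5, Ddit3 aliquots of a replicate stay within 2.29-fold of each other, whereas in uninjured control replicate 4 Nupr1 runs from 0.222 to 79.8 CPM.

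The scatter between aliquots of about 100 cells differed by gene. The standard deviation between aliquots of a replicate, on log2(CPM + 0.5), was 0.30 for Atf4, 0.35 for Ddit3 and 0.37 for Gadd45a, against 0.84 for Trib3, 0.91 for Chac1 and 1.54 for Nupr1. In crush cKO replicate 3, for example, the 3 aliquots held 13.0, 24.3 and 137 CPM of Nupr1. Over the 10 genes and 48 libraries a single reading was at 0 counts, that of Nupr1 in an uninjured control aliquot.

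Whether the 2 perturbations add up was tested as an interaction, the crush effect in cKO neurons minus that in control neurons on the log2 scale. It was called negative for 3 of the 10 genes and positive for none, where 1.54% of all genes tested were called negative and 0.220% positive. These were 293 and 42 genes, against 191 and 11 without uninjured cKO replicate 1. For Atf4 the crush effect was smaller in cKO neurons (interaction -1.001 ± 0.16 log2 units, edgeR adjusted p = 0.00215). The interaction was -2.54 ± 0.35 for Chac1 (edgeR adjusted p = 0.000535) and -2.71 ± 0.25 for Gadd45a (edgeR adjusted p = 1.42e-05), and all 3 calls held in each of the 16 fits that left out a sample. Atf5 had an interaction of -1.17 ± 0.29 (edgeR adjusted p = 0.0574), which passed the threshold under 5 of 9 other settings, DESeq2 among them (adjusted p = 0.00791), and without uninjured control replicate 1 or 3 or crush control replicate 2 (lowest adjusted p = 0.0153).

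In CPM the same comparison reads differently by gene. The rise of the Atf4 mean over uninjured control was 203 CPM in crush cKO, 169 CPM in crush control and 111 CPM in uninjured cKO samples, so the combined rise was below the 280 CPM sum of the single ones. For Gadd45a the combined rise of 292 CPM equalled the 294 CPM of crush alone, with 131 CPM for deletion alone. For Chac1 the rises were 67.6 CPM combined, 49.5 CPM for crush and 34.8 CPM for deletion. Ddit3 alone of these 4 had a combined rise (139.5 CPM) above the sum of its single rises (128 CPM, of which 19.8 CPM for crush and 108 CPM for deletion). Among the other genes, Ppp1r15a (23.2 against 19.4 CPM), Cebpb (2.09 against 0.809 CPM) and Nupr1 (36.6 against -4.20 CPM) also had a combined rise above the sum. Atf5, Trib3 and Cebpg had it below. These differences of means were given no test.

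**Figure D4:**
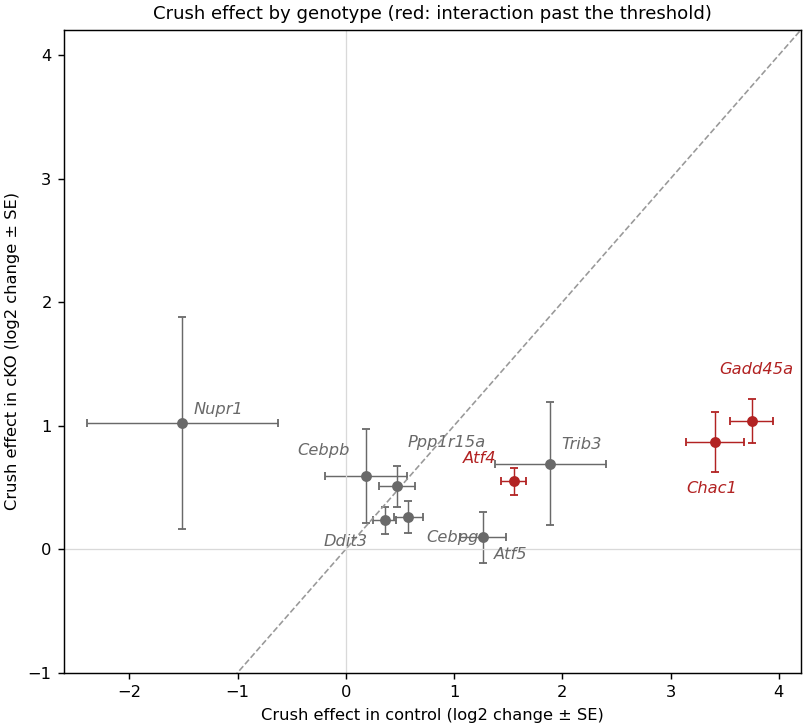
Log2 crush effect ± SE in cKO neurons (vertical axis) against that in control neurons (horizontal axis) for the 10 genes; the dashed line marks equal effects and red marks an interaction past an edgeR adjusted p of 0.05. Gadd45a, Chac1 and Atf4 lie well below the line, while Ddit3 lies near it with both effects under 0.4.

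A further comparison, added after the values had been seen, set crush alone against deletion alone (crush control minus uninjured cKO). It was called positive for 2 of the 10 genes and negative for 1, where 5.96% of all genes tested were called higher and 6.27% lower. Gadd45a was higher after crush by 1.04 ± 0.18 log2 units (edgeR adjusted p = 0.00123), and Ddit3 differed the other way, by -0.99 ± 0.11 (edgeR adjusted p = 3.62e-05). Both calls held whichever sample was left out. Atf4 was higher after crush by 0.37 ± 0.11 (edgeR adjusted p = 0.0385), a call lost in 6 of the 16 fits that left out a sample (uninjured cKO replicate 1, 2 or 4, crush control replicate 1 or 3, or crush cKO replicate 2, adjusted p up to 0.119). Atf5 was lower in every crush control sample than in every uninjured cKO sample, by -0.34 ± 0.21 log2 units, without passing the edgeR test (adjusted p = 0.367).

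The stress kinases upstream and the targets downstream were followed with lists of genes outside the 10. Among 16 genes of the eIF2 kinases and the eIF2 pathway, crush had no call in cKO neurons and raised 3 and lowered 1 in control neurons, and deletion had no call after crush and raised 2 in uninjured neurons. All genes had 11.0% higher and 8.68% lower with crush in control neurons, and 11.7% and 9.02% with deletion in uninjured neurons. With so few genes these counts do not set the list apart from all genes. Eif2ak3, which encodes PERK, the kinase that senses endoplasmic reticulum stress, was the leading called gene of the list. It averaged 72.6 ± 6.76 CPM in crush cKO, 54.4 ± 2.25 CPM in crush control, 79.0 ± 9.55 CPM in uninjured cKO and 29.1 ± 5.18 CPM in uninjured control samples. Eif2ak3 rose by 0.90 ± 0.13 log2 units with crush in control neurons (edgeR adjusted p = 0.000108) and by 1.44 ± 0.13 with deletion in uninjured neurons (edgeR adjusted p = 1.2e-06), with an interaction of -1.03 ± 0.18 (edgeR adjusted p = 0.00484). The other risers, Eif2b5 of the eIF2 exchange factor (0.43 with crush and 0.45 with deletion) and the phosphatase subunit Ppp1r15b (0.41 with crush), lost their calls in 4 of the 16 fits that left out a sample, and the list's crush count ranged from 1 to 5 over those fits.

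Of 34 tested targets of ATF4 in amino acid metabolism, the transporters, tRNA synthetases and serine and one-carbon enzymes, crush raised 7 in cKO and 23 in control neurons and lowered none. Deletion raised 3 after crush and 20 in uninjured neurons and lowered none. The shares raised by crush were 20.6% in cKO and 67.6% in control neurons, where all genes had 2.57% and 11.0% higher. Those raised by deletion were 8.8% after crush and 58.8% in uninjured neurons, where all genes had 3.38% and 11.7% higher. The alanyl-tRNA synthetase gene Aars averaged 340 ± 40.9 CPM in crush cKO, 278 ± 42.1 CPM in crush control, 247 ± 15.4 CPM in uninjured cKO and 83.2 ± 5.27 CPM in uninjured control samples, which is the order of Atf4. Its interaction was -1.28 ± 0.16 log2 units (edgeR adjusted p = 0.000193). The mitochondrial one-carbon enzyme Mthfd2 (-0.91 ± 0.19) and the amino acid transporter Slc7a5 (-1.40 ± 0.25) were the other 2 called with a negative interaction. None of the list was called positive. Over the 34 genes, called or not, the interaction ranged from -1.778 to 0.187, with a median of -0.476.

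Within that list the members did not all behave alike. Slc1a4, a neutral amino acid transporter, rose with crush in cKO neurons by 1.13 ± 0.15 log2 units (edgeR adjusted p = 0.000361) and in control neurons by 1.81 ± 0.15 (edgeR adjusted p = 4.77e-07), and was higher with crush alone than with deletion alone by 1.51 ± 0.15. Its means were 101.6 CPM in crush cKO, 132 CPM in crush control, 46.4 CPM in uninjured cKO and 37.7 CPM in uninjured control samples. Phgdh, the entry enzyme of serine synthesis, had 24.2 ± 4.87 CPM in crush cKO, 7.21 ± 1.15 CPM in crush control, 14.6 ± 2.09 CPM in uninjured cKO and 4.27 ± 1.45 CPM in uninjured control samples, and deletion raised it after crush by 1.75 ± 0.24 (edgeR adjusted p = 0.000509). The serine enzyme Psat1 (0.49 ± 0.10) and the aspartate aminotransferase Got1 (0.45 ± 0.10) were the other 2 raised by deletion after crush, Got1 not without crush cKO replicate 4. The count of 7 for crush in cKO ranged from 3 to 9 and the count of 3 for deletion after crush from 2 to 6 when a sample was left out.

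Signalling and death targets of ATF4 and CHOP moved in both directions. Of 16 tested, 1 rose and none fell with crush in cKO neurons, 4 rose and 2 fell with crush in control neurons, 3 rose and 1 fell with deletion after crush, and 5 rose and 1 fell with deletion in uninjured neurons. For crush, the shares of all genes were 2.57% higher and 2.86% lower in cKO, and 11.0% and 8.68% in control neurons. For deletion they were 3.38% and 3.21% after crush, and 11.7% and 9.02% in uninjured neurons. Whether the list differs from all genes was not tested. Pmaip1, which encodes the death-promoting BH3 protein NOXA, averaged 83.5 ± 41.2 CPM in crush cKO, 21.5 ± 5.62 CPM in crush control, 5.07 ± 1.62 CPM in uninjured cKO and 0.870 ± 1.52 CPM in uninjured control samples. It rose with crush by 4.04 ± 0.77 log2 units in cKO (edgeR adjusted p = 0.00566) and 4.61 ± 0.82 in control neurons (edgeR adjusted p = 0.000897). The value in control neurons was 7.58 without uninjured control replicate 3, 6.32 with voom and 5.74 with the replicate block, so its size is uncertain while its call held in all of these. The autophagy receptor gene Sqstm1 averaged 829.6 ± 105.5 CPM in crush cKO, 596 ± 75.9 CPM in crush control, 835 ± 67.1 CPM in uninjured cKO and 384 ± 35.0 CPM in uninjured control samples. It rose with deletion in uninjured neurons by 1.12 ± 0.11 (edgeR adjusted p = 4.22e-06). The count for deletion after crush fell to 0 without crush control replicate 3, to 1 without crush cKO replicate 2 and to 2 without crush control replicate 2 or crush cKO replicate 3.

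The other 2 arms of the unfolded protein response, IRE1-XBP1 and ATF6, had calls in both directions. Of 27 tested genes, crush changed none in cKO neurons and raised 4 and lowered 3 in control neurons, and deletion raised 1 and lowered 1 after crush and raised 5 and lowered 3 in uninjured neurons, with no interaction called. For crush in control neurons the list had 14.8% higher and 11.1% lower, where all genes had 11.0% and 8.68%, and for deletion in uninjured neurons it had 18.5% higher and 11.1% lower, where all genes had 11.7% and 9.02%. With so few genes these shares say nothing particular about the list. After crush, deletion raised Canx, the chaperone calnexin, by 0.46 ± 0.08 log2 units (edgeR adjusted p = 0.00173), and lowered Hspa5, the chaperone BiP, by -0.45 ± 0.10 (edgeR adjusted p = 0.0119). The 3 genes of the list with the smallest p for deletion in uninjured neurons were the 3 lowered. It lowered Pdia4, a disulfide isomerase of the endoplasmic reticulum, by -0.65 ± 0.11 log2 units in uninjured neurons (edgeR adjusted p = 0.000691). Hspa5 averaged 276 ± 36.1 CPM in crush cKO against 377 ± 19.8 CPM in crush control samples. The count of 7 for crush in control neurons ranged from 3 to 9 and the count of 8 for deletion in uninjured neurons from 3 to 8 when a sample was left out.

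Among 28 other bZIP factors tested, crush raised 4 and lowered none in cKO neurons and raised 8 and lowered 2 in control neurons. Deletion changed none after crush and raised 7 and lowered 3 in uninjured neurons. Higher and lower shares with crush were 14.3% and 0.0% in cKO, and 28.6% and 7.1% in control neurons. All genes had 2.57% and 2.86%, and 11.0% and 8.68%. With deletion in uninjured neurons the shares were 25.0% and 10.7%, where all genes had 11.7% and 9.02%. Atf3, the injury-induced factor, averaged 1095 ± 220.1 CPM in crush cKO, 1132 ± 132 CPM in crush control, 434 ± 32.6 CPM in uninjured cKO and 76.5 ± 23.6 CPM in uninjured control samples, in the same order of group means as Gadd45a. Its interaction was -2.55 ± 0.28 log2 units (edgeR adjusted p = 6.26e-05). Among 16 relatives of the p53, GADD45 and Tribbles families, crush raised 2 and lowered 3 in cKO and raised 5 and lowered 3 in control neurons, and deletion raised 2 and lowered 1 after crush and raised 6 and lowered 3 in uninjured neurons. The shares of all genes with crush and with deletion in uninjured neurons are those given above. With deletion after crush all genes had 3.38% higher and 3.21% lower. Whether these relatives differ from all genes was not tested. The cell cycle inhibitor gene Cdkn1a averaged 445 ± 35.4 CPM in crush cKO, 419 ± 83.1 CPM in crush control, 292 ± 14.9 CPM in uninjured cKO and 48.4 ± 15.96 CPM in uninjured control samples, with an interaction of -2.51 ± 0.29 (edgeR adjusted p = 0.000121). Trib2, a relative of Trib3, moved the other way, by -1.42 ± 0.24 with deletion after crush (edgeR adjusted p = 0.0022).

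**Figure D5:**
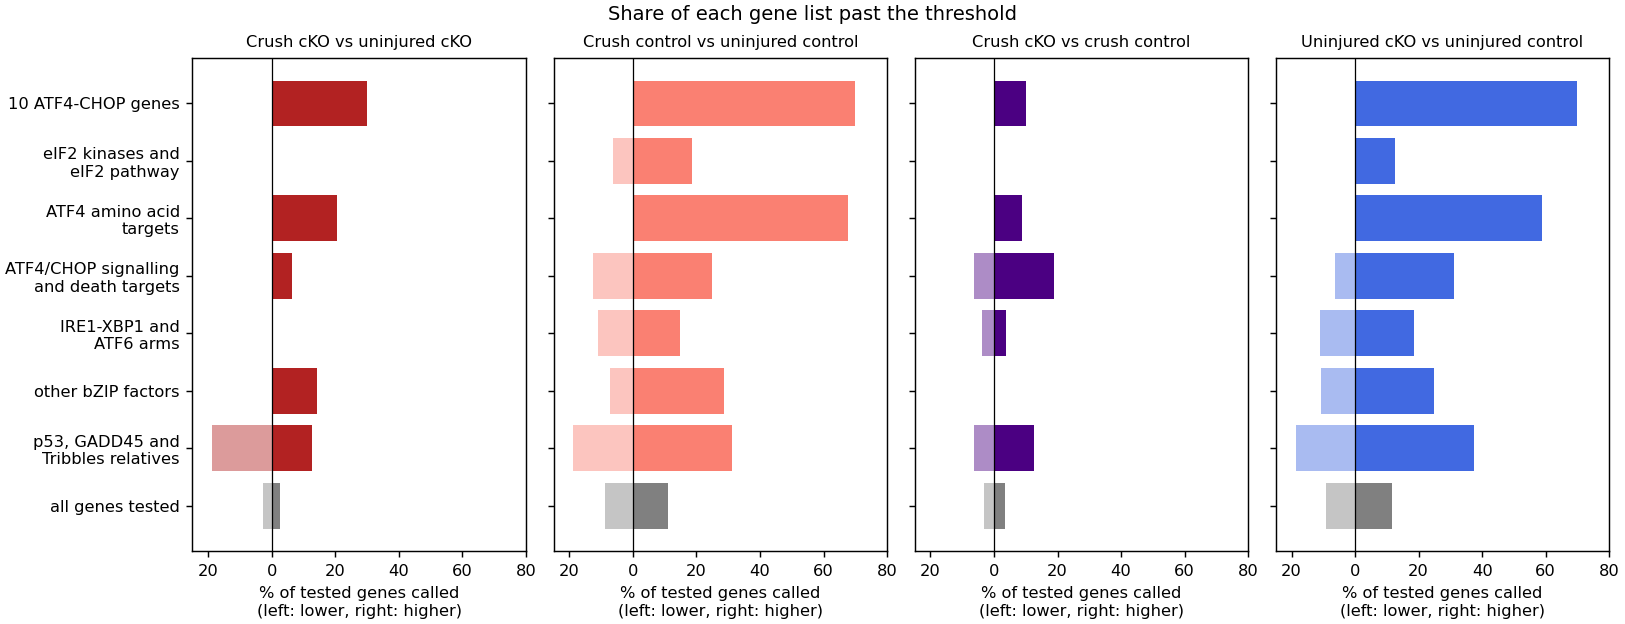
Percent of the tested genes of each list that passed an edgeR adjusted p of 0.05, higher to the right and lower (paler) to the left, in the 4 pairwise comparisons, with all 19048 genes in grey. The 10 ATF4-CHOP genes and the 34 ATF4 amino acid targets have the longest bars for crush in control and deletion in uninjured neurons, and the IRE1-XBP1 and ATF6 arms have short bars in both directions.

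The genes whose levels ran most like Atf4 over the 16 samples, by Pearson correlation of log2(CPM + 0.5) among 10226 genes with a mean of at least 5 CPM, were Cited2 (r = 0.989), Trp53i11 (0.986), Xdh (0.984), Sprr1a (0.984) and Srxn1 (0.983). Sprr1a, an injury-induced gene of sensory neurons, averaged 1498 CPM in crush cKO, 1120 CPM in crush control, 223 CPM in uninjured cKO and 4.31 CPM in uninjured control samples. Within the set, Chac1 (0.988) and Gadd45a (0.982) were closest to Atf4, followed by Cebpg (0.903), Atf5 (0.880), Trib3 (0.854), Ppp1r15a (0.697), Ddit3 (0.669) and Nupr1 (0.297). Those most like Ddit3 were a different group, namely Pdpn (0.967), Tfrc (0.965), Ctsb (0.964), Prnp (0.963) and Gprc5a (0.961). Tfrc, the transferrin receptor gene, averaged 158 CPM in crush cKO, 87.5 CPM in crush control, 137 CPM in uninjured cKO and 71.7 CPM in uninjured control samples. Ctsb, which encodes the lysosomal protease cathepsin B, averaged 11157 CPM in crush cKO, 5388 CPM in crush control, 11170.1 CPM in uninjured cKO and 4838 CPM in uninjured control samples. These correlations run over 4 groups of samples, so differences between group means enter them, and they were given no p.

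The authors' deposited table of DESeq2 results lists all 10 genes in 3 comparisons, whose log2 changes match fits against uninjured control with a median absolute difference of 0.03 to 0.04. At an adjusted p of 0.05 the authors' deposited table has 10 of the 10 for crush cKO, 8 for crush control and 6 for uninjured cKO. It holds 8600 genes, fewer than the 19048 tested here. The share of the 8600 that pass was not worked out, so these counts stand without a background. In the authors' deposited table Cebpb (0.73), Nupr1 (1.69) and Ppp1r15a (0.69) pass for crush cKO, the combination of both perturbations, and Ppp1r15a passes for crush control (0.49). Cebpg, called here with deletion in uninjured neurons, has an adjusted p of 0.079 in the authors' deposited table.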

How the data were processed

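RNA sequencing gene counts of 48 libraries of sorted mouse nociceptors were used. Per the labels' protocols, libraries came from about 100 cells each, made with the SMARTer Ultra Low RNA kit, and were read as single reads of 50 bases, with no molecular identifiers named. That kit does not mark strand. Per the submitters' processing notes, FastQC, STAR, HTSeq and DESeq2 were used with mm10, versions not stated. The authors deposited whole-number read counts per Ensembl gene, not normalized. HTSeq's 5 summary lines stayed out of all totals, and of all counted alignments those placed in several positions made up 37.5 to 46.1%, those outside genes 5.92 to 19.4% and ambiguous ones 1.92 to 2.58%. Libraries held 5159353 to 34228180 gene counts (median 16885996), and 47224 identifiers matched a GENCODE M21 symbol, 419 did not. A second GENCODE identifier for Ddit3 is not among the counted ones. Per the file headers, a second deposited table gives the authors' log2 fold changes and p-values for 3 comparisons, with the reference group not stated. Fits here match it against uninjured control.

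Counts of the 3 aliquots, which the labels call technical, were summed per replicate. The labels call replicates biological but do not say whether both sides came from the same animals, so p-values measure the spread between these samples. The 16 sums were fitted together with edgeR 4.0.16 in R 4.3.3 (TMM, filterByExpr, 19048 genes, group means, two-sided quasi-likelihood test, Benjamini-Hochberg adjustment over all genes, threshold 0.05). The SE is the log2 change divided by the square root of F. Exact permutation tests and correlations used log2(CPM + 0.5). Alternatives were DESeq2 size factors, DESeq2 1.42.0, voom of limma 3.58.1, other filters on low counts (none, or a mean of 5 CPM), the replicate number as a block, sex as a covariate, only the 2 groups compared, equal-depth aliquots, leaving out each sum, and a threshold of 0.01. The block was the replicate number within each genotype for the crush effects and the interaction. For the other comparisons it was the replicate number across genotypes, which joins samples of different mice. The genes and lists were chosen with earlier results of these data known. All 10 genes and Tsc2 are named throughout, and from each list up to 3 called genes per comparison, those with the smallest p, or a few of these. For likeness the 5 highest correlations are named.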

Additional observations from a re-analysis of the deposited data

Results flagged for a closer look

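In 40 sets of 4 replicate values, 10 genes in 4 groups, 2 held a sample set apart from the other 3 by a Dixon test at the 95% level, which chance does in about 1 in 20 such sets. Chac1 in crush control replicate 2 was at 26.9 CPM, against 61.9 to 66.0 CPM in the other crush control samples. Nupr1 in uninjured cKO replicate 2 was at 78.9 CPM, against 7.01 to 14.2 CPM in the other uninjured cKO samples, and all 3 of its aliquots, at 38.9, 57.6 and 159 CPM, were above every aliquot of the other uninjured cKO replicates.

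The crush effect differed between genotypes by the interaction test for Atf4 (-1.001), Chac1 (-2.54) and Gadd45a (-2.71), cKO minus control in log2 units. Each of these genes was already raised in uninjured cKO neurons and was higher in crushed cKO than in uninjured cKO neurons.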

How the results depend on the processing

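Leaving out 1 sample gave calls for 2 to 3 (3 with all samples) of the 10 genes for crush in cKO, 6 to 8 (7) for crush in control, 1 to 2 (1) for deletion after crush, 5 to 7 (7) for deletion in uninjured neurons, 3 to 4 (3) for the interaction and 2 to 4 (3) for crush against deletion. Deletion after crush gave 2 under DESeq2, a mean of at least 5 CPM, the replicate block and a fit of the 2 groups, Nupr1 being the addition. Differences near 0 changed sign. Gadd45a with deletion after crush was 0.0031 with the CPM filter and 0.0063 in the fit of 2 groups, and -0.1099 to 0.0809 without single samples. The Ppp1r15a interaction was -0.0828 with equal-depth aliquots and -0.113 to 0.1289 without single samples, and that of Cebpb -0.0625 to 0.6046. Crush against deletion gave -0.0033 in the fit of 2 groups and -0.0653 with equal-depth aliquots for Cebpb, -0.19 to 0.18 without single samples, and -0.20 to 0.45 for Trib3. Tsc2 ranged from -0.301 to 0.0514 for crush in cKO and -0.0088 to 0.2421 for crush in control, and Nupr1 from -0.89 to 1.74 for deletion in uninjured neurons. Their cause was not tested. Over all genes, DESeq2 called 1646 against 1034 for crush in cKO, 2042 against 1256 for deletion after crush and 743 against 335 for the interaction. A threshold of 0.01 left 431 for crush in cKO, 2002 of 3750 for crush in control, 479 for deletion after crush, 2105 of 3948 for deletion in uninjured neurons and 154 for the interaction. Leaving out 1 sample gave 618 to 1082 for crush in cKO, 2753 to 3915 for crush in control, 928 to 1364 for deletion after crush, 2932 to 4109 for deletion in uninjured neurons and 202 to 485 for the interaction. Same-numbered samples were not treated as pairs, since the labels give them the same sex but no shared animal. Their deviations correlated at 0.063 to 0.152 between crush and uninjured cKO and 0.041 to 0.109 between crush and uninjured control, each sample best with its own number in both, a hint from the data and not the design. Between genotypes, where no mouse is shared, same-numbered crushed samples correlated at 0.026 to 0.064, 3 of 4 best with their own number. Uninjured ones correlated at 0.009 to 0.056 (2 of 4), and uninjured cKO with crush control samples at 0.013 to 0.034 (3 of 4). If same-numbered samples of a genotype shared a mouse, the main crush tests left that pairing out. With the replicate block Ppp1r15a passed for crush in control (adjusted p = 0.0475) and Nupr1 for deletion after crush (0.0482).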
